A study of Vachellia cornigera with 24 samples.

Results

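The 117 genes described here encode proteins that loosen, cut or coat the primary plant cell wall. They were taken from the 12650 genes of the table by their annotation alone: each carries a description that contains at least 1 of the 8 words expansin, xyloglucan, pectin, pectate, polygalacturonase, extensin, fasciclin and arabinogalactan. AT5G03170 and AT5G47635 were left out by the same rule. Sorted by description they are 10 expansins, 15 xyloglucan enzymes, 24 pectin methylesterases and their inhibitors, 7 pectin acetylesterases, 29 pectin or pectate lyase-like proteins, 2 genes named for polygalacturonase, 13 extensin-like proteins, 13 fasciclin-like arabinogalactan proteins and 4 other arabinogalactan proteins. Of these 117 genes 105 had a mean of at least 10 normalised counts over all libraries and entered the tests. A family name repeats the wording of the annotation and does not state an enzyme activity. Genes go by the closest locus of Arabidopsis thaliana, and 46 of the 117 have a symbol that their description spells out.

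The libraries came from extrafloral nectaries of Acacia cornigera, the home tree of Pseudomyrmex ferrugineus ants that drink its nectar, and were made to follow nectary transcripts over the day and after disturbance of the ant colony. In the disturbed plants 3 libraries came from nectaries whose ants had been removed for 2 days (ants removed), 3 from a treatment titled Gracilis replacement (Gracilis), 2 from one titled gut contents applied (gut contents) and 1 from plants whose ants were put back after 2 days (returned ants, sampled at 9 am). For the hours of the day the 9 am, noon and 3 pm groups have 3 libraries each, 2 pm has 1, and 3 am of day 2 has 2; a further 3 libraries from 8 am are titled as controls. All tissue was collected in the field, each library pools nectaries of several plants, not all replicates passed the submitters' quality control, and no genotype or plant age is given. The labels give no clock time for ants removed, Gracilis or gut contents, and do not say what Gracilis or the gut contents were, so that treatment, hour and day of sampling cannot be told apart in their comparison with 8 am. Among the times only 3 am carries a day and only 8 am is titled as control, so hour and day cannot be told apart there either. In these 10 groups 8 have replicates. The 2 pm and the returned ants library are described without a test.

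Growing plant cells are held in by a primary wall in which cellulose fibres are tethered and embedded in xyloglucan and pectin. Expansins let the fibres slip without cutting them, and xyloglucan endotransglucosylase/hydrolases (XTHs) cut and rejoin xyloglucan chains. Pectin methylesterases remove methyl groups from pectin, which lets calcium stiffen it or exposes it to polygalacturonases and pectate lyases, and inhibitor proteins hold the methylesterases back. Extensins form a protein network in the wall, and arabinogalactan proteins coat the cell surface, some of them with fasciclin domains that take part in adhesion. Nectaries secrete sugar through their walls, and sugar-cleaving enzymes act in that wall space.

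The libraries summed to between 21084266 and 32520511 normalised counts, the highest at 2 pm and 27582060 the next highest; the number of reads behind a count is unknown. Each 9 am and each 3 pm library correlated best, across genes, with a library of another group, at 0.953 to 0.988, against at most 0.915 (9 am) and 0.937 (3 pm) with its own group. Also nearest to another group were 1 of 2 libraries at 3 am, 1 of 3 without ants, 2 of 3 for Gracilis and both for gut contents. Noon samples 1 and 3 (correlation 0.994) and ants-removed samples 2 and 3 (0.993) differed least among replicates. Results were therefore also computed with each such pair as 1 library. Noon sample 2 was close as well, at 0.989 with both other noon samples, against at most 0.981 in the remaining replicate pairs. The nectary markers SWEET9 (AT2G39060, a sucrose exporter in nectaries of other plants), CWINV4 (AT2G36190, a wall invertase), PIN6 (AT1G77110) and SPS1F (AT5G20280) had a mean above 0 in every group. SWEET9 averaged 242141, 180047 and 232610 without ants, for Gracilis and for gut contents, against 174589 at 8 am, and CWINV4 averaged 11309, 8735 and 13352 against 85673. Between 8 am and each of these treatments SWEET9 passed no test, CWINV4 and PIN6 fell and SPS1F rose. The 4 summed to 22858 to 24801 at noon, 19733 to 34516 at 3 pm and 97103 to 177526 at 3 am, against 230329 to 286649 at 8 am. Of these 4 genes 3 fell at noon, 2 fell at 3 pm, and 3 rose at 3 am against noon. Among all genes 17.7% fell at noon and 19.0% at 3 pm, and 9.89% rose at 3 am against noon. The part of these markers in the results on wall genes was not tested.

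Taken over all groups, wall-loosening and pectin genes had a wider spread of group means than the median gene, and most were lowest in an ant treatment. The distance between a gene's highest and lowest mean among the 8 replicated groups had a median of 2.38 on the log2 scale over the 105 genes, against 1.07 over all 12264 genes tested. The highest mean fell at 3 am in 39 of them, at noon in 34 and at 8 am in 16. Among all genes 13.7% were highest at 3 am, 21.5% at noon and 16.8% at 8 am. The lowest mean was in gut contents for 30 wall genes, in ants removed for 23 and in Gracilis for 20, together 73 of 105, where 33.0% of all genes had their lowest mean in 1 of these treatments. Since the tissue was taken in bulk, fewer cells that make these transcripts and less transcript in each cell cannot be told apart, here or in any result that follows.

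**Figure D1:**
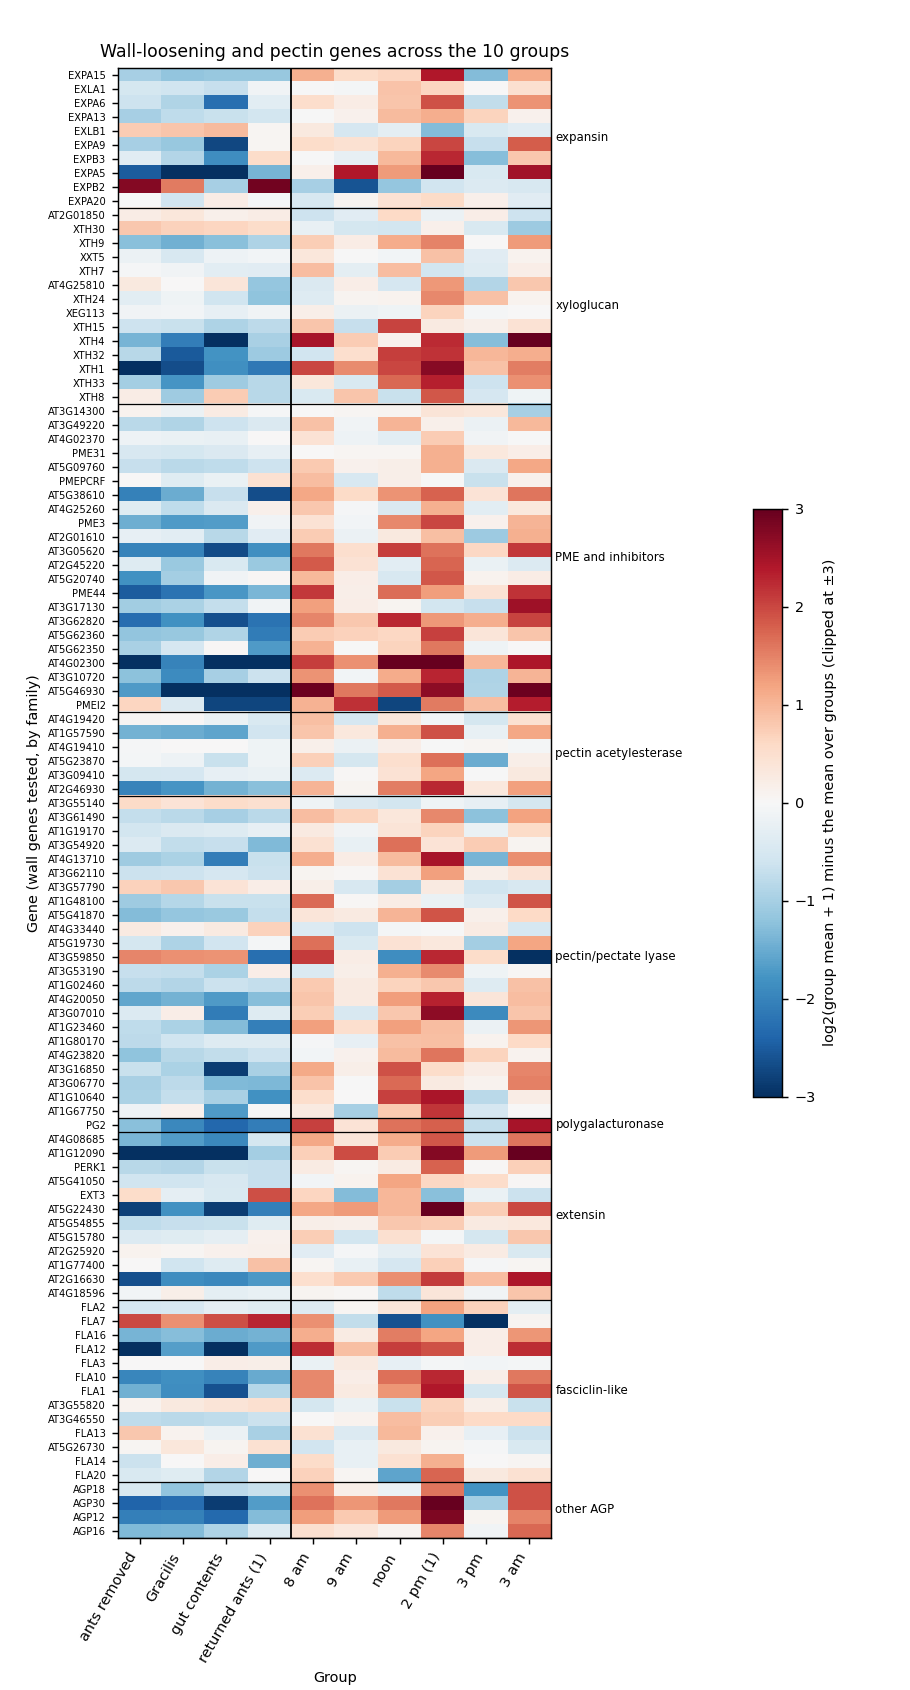
Each row is 1 of the 105 wall genes, ordered by family and then by mean level, and each column a group; colour gives log2(group mean + 1) minus that gene's mean over the 10 groups, clipped at 3 in either direction, and the vertical line parts the ant treatments from the times of day, with 1 library at 2 pm and 1 for returned ants. Most rows are blue left of the line and red at 8 am, noon, 2 pm and 3 am; FLA7, XTH30 and AT3G55140 are among the rows that are red on the left.

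A single pectinesterase gene held the most normalised counts. AT3G14300 held the largest value of the table in every library, 602338 to 2562705 normalised counts, or 2.54% to 9.98% of a library's sum, while the other 116 wall genes together made up 0.365% to 0.768%. It had 1336341, 1701074 and 1720109 normalised counts without ants, 1352316, 1001198 and 1603380 for Gracilis and 1598718 and 1905202 for gut contents, against 2136645, 841175 and 1531306 at 8 am. At 3 am the values were 881212 and 602338, both below every library of noon and of these ant treatments. The ant treatments lay within the range of the 8 am libraries, in which sample 2 was low, and no comparison of 2 groups called the gene (adjusted p from 0.271 to 1, and 0.526 in the F test over times). Values are not scaled by transcript length, which no source used here gives, so levels of different genes are not compared further.

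**Figure D2:**
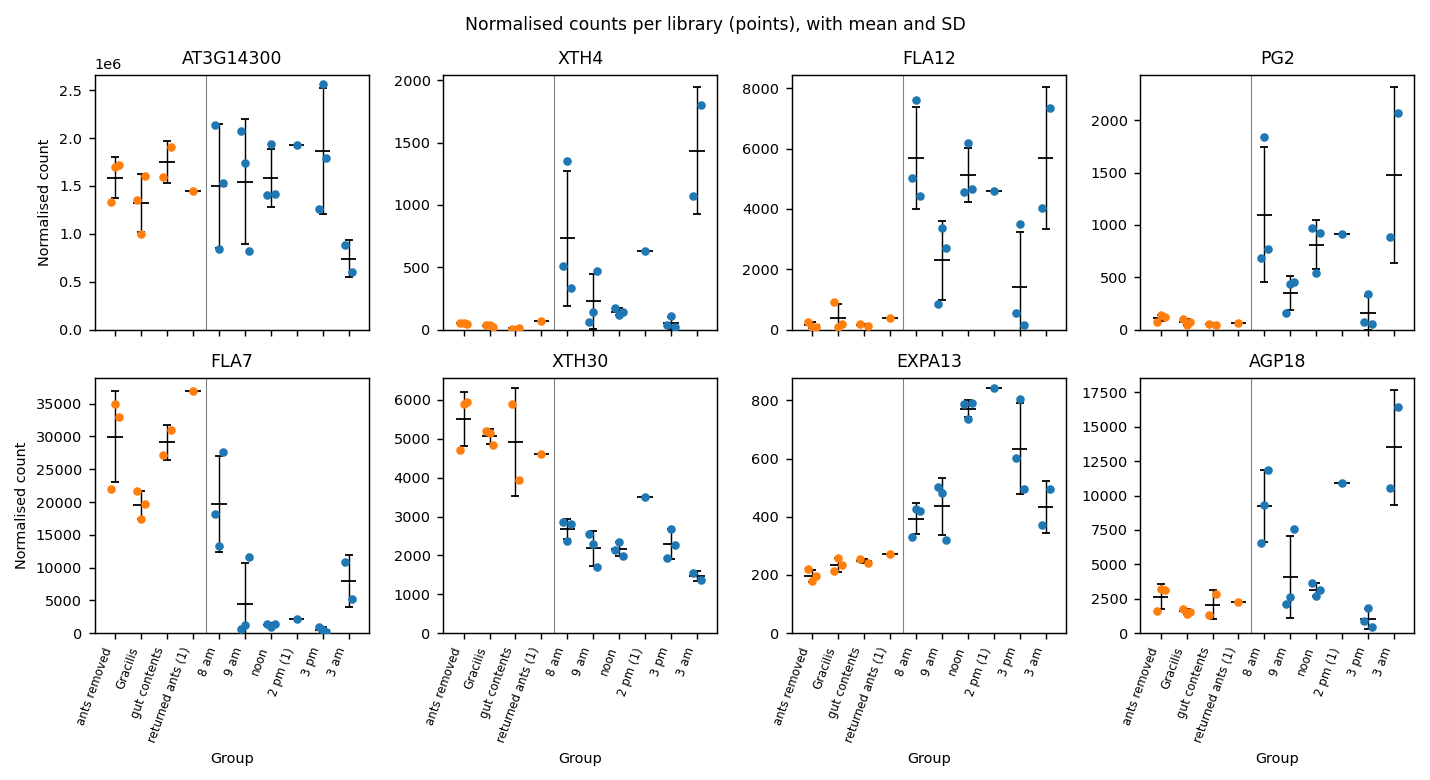
Normalised counts of 8 genes (linear axes from 0) in each library, by group; points are libraries, bars the mean and SD, and the vertical line parts ant treatments (orange) from times of day (blue). XTH4, FLA12 and PG2 are lower in all ant treatments than at 8 am, and FLA7 is low at noon and 3 pm. XTH30 is higher in every ant-treatment library than in any other, and EXPA13 is highest from noon to 3 pm. AT3G14300 overlaps between the ant treatments and 8 am, and both 3 am libraries are below every noon library.

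Differences between times of day were asked first, with hour and day of sampling not told apart. Among 9 am, noon, 3 pm, 3 am and 8 am the moderated F test of limma called 44 of the 105 wall genes, beside 39.7% of all genes tested. These were 2 of 10 expansins, 6 of 14 xyloglucan enzymes, 6 of 22 methylesterases and inhibitors, 2 of 6 acetylesterases and 14 of 23 lyase-like proteins. Also called were PG2, the only tested gene named for polygalacturonase, 5 of 12 extensin-like, 6 of 13 fasciclin-like and 2 of 4 other arabinogalactan proteins. By mean, 20 of the 44 were highest at 3 am, 16 at noon, 7 at 8 am and 1 at 3 pm, and 29 were lowest at 3 pm. Of all genes the F test called, 14.8% were highest at 3 am, 27.7% at noon, 34.1% at 8 am and 22.1% at 3 pm, and 16.9% were lowest at 3 pm. Without noon sample 1 or without noon sample 3 the test called 29, with each near-identical pair as 1 library 21 (30.2%, 30.0% and 26.1% of all genes), and without the doubtful 9 am and 3 pm libraries, over noon, 3 am and 8 am, 32, beside 53.6% of all genes.

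AGP18, a lysine-rich arabinogalactan protein of the cell surface, had the smallest adjusted p among wall genes in the F test (0.000201). It stood at 2099, 2625 and 7543 normalised counts at 9 am, 3633, 2713 and 3139 at noon, 849, 1837 and 435 at 3 pm, 10551 and 16445 at 3 am, and 6561, 9317 and 11833 at 8 am. Both night libraries and 2 of 3 at 8 am were above every library of 9 am, noon and 3 pm, and the 3 pm values did not overlap with those of noon, 3 am or 8 am. FLA7, a fasciclin-like arabinogalactan protein (adjusted p = 0.000373), had 677, 1175 and 11655 at 9 am, 1431, 872 and 1376 at noon, 931, 522 and 116 at 3 pm, 10798 and 5203 at 3 am, and 18146, 13322 and 27599 at 8 am. It was low at noon and 3 pm, with 9 am sample 3 apart from the other 9 am libraries. XTH4, an enzyme that remodels xyloglucan in Arabidopsis stems (adjusted p = 0.000385), had 64, 140 and 472 at 9 am, 172, 116 and 141 at noon, 37, 106 and 19 at 3 pm, 1074 and 1799 at 3 am, and 510, 1351 and 335 at 8 am. Night and 8 am lay above noon and 3 pm without overlap.

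At noon, wall genes were split between rises and falls. Against 8 am 8 rose and 8 fell, 16 of 105 (15.2%), where limma called 37.4% of all genes tested, 19.7% higher and 17.7% lower. The groups did not overlap in 42 wall genes (40.0%) beside 65.7% of all genes, and the median log2 change was 0.14 over wall genes, against 0.09 over all genes. FLA7 fell furthest (log2 fold change -3.97 ± 0.78 SE, adjusted p = 0.000895), followed by XTH4 (-2.11 ± 0.66), AGP18 (-1.52 ± 0.49), the lyase-like AT1G48100 (-1.42 ± 0.42), the inhibitor-family gene AT5G20740 (-1.33 ± 0.46) and the lyase-like AT3G57790 (-1.18 ± 0.23), and AT4G02370 and AT3G55140 fell as well.

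Those that rose at noon belonged to 5 families. XTH32 had 484, 819 and 427 normalised counts at noon, against 84, 119 and 67 at 8 am (2.65 ± 0.75, adjusted p = 0.0107). AT5G41050 of the Ole e 1 and extensin family had 1384, 1494 and 1547, against 519, 936 and 399 (1.35 ± 0.34). The lyase-like AT3G54920 had 1667, 1564 and 1487, against 664, 839 and 553 (1.22 ± 0.43). In these 3 genes every noon library was above every 8 am library. The endoxyloglucan transferase AT2G01850 rose by 1.21 ± 0.33 on the log2 scale, the lyase-like AT4G23820 by 1.09 ± 0.42 and EXPA13, an alpha-expansin, by 0.98 ± 0.20, to 786, 737 and 790 at noon, against 332, 428 and 421 at 8 am; AT3G46550 and AT1G80170 also rose. The number called was 10 without noon sample 2 (27.7% of all genes), 10 without noon sample 3 (28.4%), 9 with near-identical pairs as 1 library (26.1%) and 32 without the 9 am and 3 pm libraries (52.2%). Of 15 alternatives, 6 lost the calls of AT3G54920 and of AT4G23820, 5 lost those of AT5G20740 and AGP18, and 0 lost that of AT2G01850.

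At 3 pm, most wall genes that passed the test were lower. Of the 105 wall genes 32 fell and 4 rose against 8 am, while limma called 36.8% of all genes, 19.0% lower and 17.8% higher; the median log2 change was -0.75 against 0.00 for all genes. In 34 wall genes (32.4%) the groups did not overlap, beside 40.8% of all genes. The falls took in 10 of 22 methylesterases and inhibitors, 7 of 23 lyase-like proteins, 4 of 13 fasciclin-like proteins and 3 of 14 xyloglucan enzymes. FLA7 had the largest fall (log2 change -5.61 ± 0.78, adjusted p = 8.24e-05), followed by XTH4 (-3.83 ± 0.66), the inhibitor-family gene AT5G46930 (-3.54 ± 0.90), AGP18 (-3.35 ± 0.49) and PG2, named for polygalacturonase (-3.12 ± 0.60). PG2 had 77, 341 and 55 normalised counts at 3 pm, against 682, 1837 and 773 at 8 am, and 162, 435 and 450 at 9 am.

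FLA2, a fasciclin-like arabinogalactan protein, ran the other way, with 32504, 23453 and 24765 at 3 pm, against 8819, 12125 and 17656 at 8 am (1.11 ± 0.33, adjusted p = 0.0136). Every 3 pm library was above every 8 am library. EXPA13 rose too (0.67 ± 0.20), as did AT4G33440 (0.62 ± 0.23) and AT2G25920 (0.60 ± 0.21). Of 14 alternatives 4 lost the call of EXPA13, 9 that of AT4G33440, 7 that of AT2G25920 and 2 that of FLA2. At 3 pm 5 of 7 markers of xylem and secondary walls also fell, beside 19.0% of all genes. The 7 summed to between 4419 and 13389 normalised counts there, against 8601 to 19826 at 8 am. Falls also came in 2 of 4 nectary, 2 of 5 epidermis and 1 of 4 each of guard cell, phloem and cell division markers. The part of any of these markers in the result was not tested. The count of wall genes called was 21 without 8 am sample 2 (28.3% of all genes) and 18 in a fit of the compared groups alone (17.0%).

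Night was set against both noon and 8 am. Relative to noon, 8 wall genes rose at 3 am and 4 fell, 12 of 105 beside 20.3% of all genes tested (9.89% higher and 10.4% lower); groups did not overlap in 50 wall genes (47.6%) beside 69.0%. XTH4 rose (3.29 ± 0.73, adjusted p = 0.00589), as did the extensin-like AT1G12090 with 5725 and 6649 normalised counts at 3 am, against 798, 1202 and 806 at noon (2.75 ± 0.79). FLA7 (2.65 ± 0.87), the inhibitor-family gene AT3G17130 (2.51 ± 0.69), AGP18 (2.07 ± 0.54), AT1G48100 (1.66 ± 0.47) and AGP16 (1.65 ± 0.46) rose as well. PMEI2, an inhibitor of pectin methylesterase, had 42 and 26 at 3 am and was listed at 0 in all 3 noon libraries (adjusted p = 0.0392). AT3G54920 (-1.59 ± 0.49), AT2G01850 (-1.22 ± 0.37), AT5G41050 (-1.15 ± 0.38) and EXPA13 (-0.84 ± 0.23) fell. The count was 5 without noon sample 1 (13.1% of all genes), 5 without sample 2 (11.6%), 6 without sample 3 (12.6%) and 3 with near-identical pairs as 1 library (1227 of the 12264 genes). Without 3 am sample 1 or sample 2 it was 1 (5.51% and 9.09%); the lone night library is then assumed to vary like the other groups. Of 14 alternatives 7 lost the call of PMEI2 and 5 to 6 those of AT1G12090, FLA7, AT3G54920, AT2G01850 and AT5G41050.

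Relative to 8 am, limma called 1 wall gene at 3 am, XTH30, beside 0.832% of all genes tested (0.563% lower), and 11 had an unadjusted p under 0.05. XTH30 had 1553 and 1378 normalised counts at 3 am, against 2863, 2371 and 2805 at 8 am (-0.87 ± 0.20, adjusted p = 0.0454), and the call was lost when any 1 of these 5 libraries was left out, with a lone night library again assumed to vary like the other groups. In 24 wall genes (22.9%) the groups did not overlap, beside 34.8% of all genes. AT1G12090 did not pass (3.09 ± 0.79, adjusted p = 0.0771), although both night values were above its 250, 1068 and 1408 at 8 am. Without the 9 am and 3 pm libraries in the fit 6 wall genes were called, beside 8.52% of all genes.

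**Figure D3:**
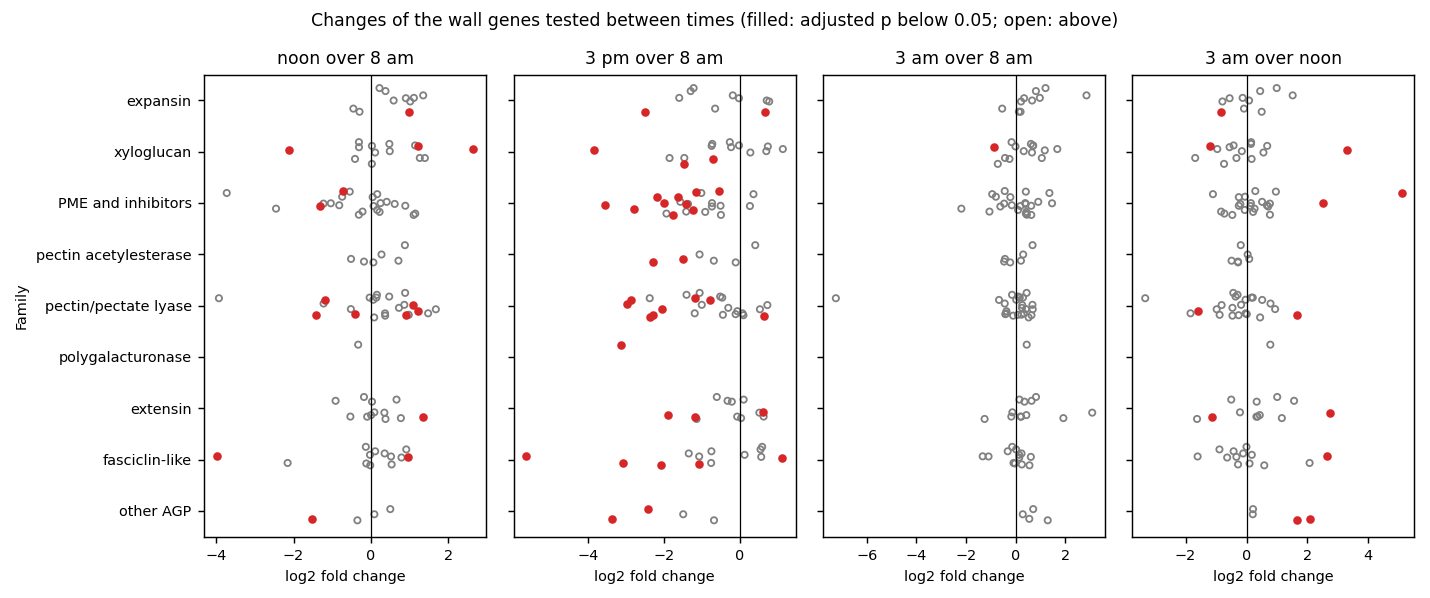
Log2 fold changes of the 105 wall genes by family in the 4 comparisons between times; each point is a gene, filled where the adjusted p was below 0.05, with a random vertical offset for legibility. Noon has 8 filled points on each side of 0, 3 pm has 32 on the left and 4 on the right, 3 am against 8 am has 1, and 3 am against noon has 8 on the right and 4 on the left.

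In plants without their ants, falls of wall genes far outnumbered rises. Against the 8 am controls 50 of the 105 wall genes fell and 4 rose, while limma called 27.5% of all genes tested, 15.9% lower and 11.6% higher. Groups did not overlap in 75 wall genes (71.4%), beside 53.2% of all genes, and the median log2 change was -1.12, against -0.05 for all genes. Those that fell were 15 of 22 methylesterases and inhibitors, 11 of 23 lyase-like proteins, 7 of 12 extensin-like proteins, 5 of 13 fasciclin-like proteins, all 4 other arabinogalactan proteins, 3 of 14 xyloglucan enzymes, 2 of 10 expansins, 2 of 6 acetylesterases and PG2.

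FLA12, a fasciclin-like protein that in Arabidopsis is made where secondary walls form, showed the largest fall after removal of the ants. It had 254, 93 and 71 normalised counts without ants, against 5036, 7602 and 4422 at 8 am (-5.53 ± 0.92, adjusted p = 0.000451). XTH1 had 4, 0 and 0, against 40, 373 and 15 (-5.19 ± 1.05, adjusted p = 0.00181). AT4G02300, of the methylesterases and inhibitors, had 2, 0 and 2, against 113, 74 and 46 (-5.15 ± 0.86). No library without ants reached the lowest 8 am value in any of the 3 genes, although XTH1 differed widely among the 8 am libraries. Of 7 xylem and secondary wall markers 5 fell beside FLA12 in each ant treatment, and their part in its fall was not tested. AT5G46930 (-4.41 ± 0.90) and AT5G22430 of the Ole e 1 and extensin family (-4.05 ± 0.69) also fell.

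Falls of smaller size were seen in XTHs, methylesterases and fasciclin-like proteins. XTH9, an XTH that in Arabidopsis is made in growing shoot tissue, had 1061, 1123 and 1196 normalised counts without ants, against 2419, 6250 and 4906 at 8 am (-1.90 ± 0.44). The methylesterase-family gene AT3G49220 had 3473, 2862 and 2661, against 8535, 12393 and 8194 (-1.68 ± 0.38). FLA16 had 839, 822 and 773, against 3250, 6754 and 3524 (-2.39 ± 0.39, adjusted p = 0.000406). In all 3 every library without ants was below every 8 am library. Among expansins, EXPA15 (-1.89 ± 0.65, adjusted p = 0.0403) and EXPA13 (-0.98 ± 0.20) fell.

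The 4 genes that rose without ants were XTH30, AT3G55140, AT4G33440 and EXPB2. XTH30 had 4710, 5882 and 5951 normalised counts, against 2863, 2371 and 2805 at 8 am (1.04 ± 0.18, adjusted p = 0.000532). The lyase-like AT3G55140 had 25233, 29634 and 29995, against 18244, 14793 and 19575 (0.70 ± 0.16). EXPB2, a beta-expansin, had 66, 88 and 83, against 0, 0 and 15 (4.98 ± 1.33, adjusted p = 0.0108), a low gene whose fold change rests on the pseudocount. In each the groups did not overlap. Of 15 alternatives 7 lost the call of AT4G33440 and 0 those of XTH30 and AT3G55140. Without 8 am sample 2 the number of wall genes called was 34, beside 15.9% of all genes.

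For Gracilis, genes of every family fell. Against 8 am 58 wall genes fell and 4 rose, while limma called 30.4% of all genes, 16.7% lower and 13.7% higher. Groups did not overlap in 71 (67.6%), beside 54.3% of all genes, and the median log2 change was -1.46, against -0.03. Of the families 16 of 22 methylesterases and inhibitors, 13 of 23 lyase-like, 7 of 12 extensin-like, 6 of 14 xyloglucan, 5 of 13 fasciclin-like, 4 of 10 expansin and all 4 other arabinogalactan genes fell, with 2 of 6 acetylesterases and PG2. AT5G46930 was listed at 0 in all 3 Gracilis libraries, against 14, 122 and 61 at 8 am (adjusted p = 0.000298).

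XTH4 had 35, 38 and 19 normalised counts for Gracilis, against 510, 1351 and 335 at 8 am (-4.34 ± 0.66, adjusted p = 0.000209). FLA12 had 907, 75 and 187, against 5036, 7602 and 4422 (-4.56 ± 0.92), and PME44, a pectin methylesterase, had 32, 12 and 2, against 813, 74 and 95 (-4.05 ± 0.96). PG2 had 97, 40 and 68, against 682, 1837 and 773 (-3.93 ± 0.60). None of these Gracilis values reached an 8 am value, and Gracilis sample 1 was the highest of its group in FLA12, PG2 and PME44. XTH30 rose (0.92 ± 0.18), as did AT2G01850 (0.96 ± 0.33, adjusted p = 0.0353), AT3G57790 (0.62 ± 0.23) and AT3G55140 (0.53 ± 0.16). Of 15 alternatives 7 lost the call of AT2G01850, 7 that of AT3G57790, 2 that of AT3G55140 and 0 that of XTH30. EXPB2 had 37, 54 and 12 and did not pass (adjusted p = 0.0505). The number called was 32 without 8 am sample 2 and 37 without Gracilis sample 3, beside 19.0% and 21.2% of all genes.

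Gut contents, with 2 libraries, gave 44 falls and 2 rises among the 105 wall genes, while limma called 22.0% of all genes, 12.9% lower and 9.12% higher. Groups did not overlap in 79 (75.2%), beside 57.3% of all genes, and the median log2 change was -1.36, against -0.01. The falls included 11 of 23 lyase-like genes, 9 of 22 methylesterases and inhibitors, 5 of 10 expansins, 5 of 12 extensin-like, 4 of 13 fasciclin-like and all 4 other arabinogalactan genes. AT4G02300 was listed at 0 in both libraries (adjusted p = 0.000465), as was AT5G46930 (adjusted p = 0.0011). XTH4 had 8 and 16 normalised counts, against 510, 1351 and 335 at 8 am (-5.63 ± 0.73, adjusted p = 0.00014), and FLA12 had 181 and 119, against 5036, 7602 and 4422 (-5.23 ± 1.03). The inhibitor-family gene AT3G62820 had 10 and 0, against 55, 150 and 101 (-4.84 ± 0.91). No gut contents library reached an 8 am library in these genes. XTH30 (0.85 ± 0.20) and AT3G55140 (0.67 ± 0.17) rose, and 1 and 4 of 14 alternatives lost these calls. The number called was 28 without 8 am sample 2, beside 12.4% of all genes. Without gut contents sample 1 it was 16, beside 7.5%, with the lone library assumed to vary like the other groups.

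These 3 comparisons, like those of noon, 3 pm and 3 am before them, share the 8 am libraries, and sample 2 of that group weighs on all of them. It was the highest of the 3 in 71 of the 105 wall genes, where 30.8% of all genes had their highest 8 am value in it, and the lowest in AT3G14300. Values of every ant library can still be set beside every 8 am library. In 60 wall genes all 8 libraries of ants removed, Gracilis and gut contents were below all 3 of 8 am, beside 23.3% of all genes, and in 5 all were above, beside 19.2%. Set against all 14 libraries of the 5 replicated times, all 8 were lower in 10 wall genes, beside 4.06% of all genes. These 10 were EXPA13, EXPA5, FLA10, FLA16, AT3G46550, the receptor kinase PERK1, AT1G12090, AT1G57590, AT3G62820 and AT2G16630. All 8 were higher in XTH30, AT3G55140 and AT3G57790, beside 4.41% of all genes. This count was added after the data were seen.

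The 4 arabinogalactan proteins without a fasciclin domain in their name show the pattern in a whole family. AGP18 had 1581, 3212 and 3117 normalised counts without ants, 1760, 1407 and 1564 for Gracilis and 1335 and 2811 for gut contents, against 6561, 9317 and 11833 at 8 am. AGP30 had 197, 127 and 98 without ants, 237, 102 and 124 for Gracilis and 72 and 136 for gut contents, against 718, 5389 and 867. AGP12 and AGP16 were also lower without overlap. In the order just used, log2 changes were -1.84, -2.51 and -2.21 for AGP18 (SE 0.49, 0.49 and 0.54), -3.46, -3.37 and -3.91 for AGP30 (SE 0.92, 0.92 and 1.03), -3.24, -3.22 and -3.61 for AGP12 (SE 0.66, 0.66 and 0.73), and -1.82, -1.76 and -1.36 for AGP16 (SE 0.41, 0.41 and 0.46). All 12 passed the test, with adjusted p up to 0.0442.

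Not all surface proteins were low. FLA7 had 21998, 34959 and 32979 normalised counts without ants, 21618, 17342 and 19641 for Gracilis and 27225 and 30954 for gut contents, against 18146, 13322 and 27599 at 8 am. The values overlap in every case, and none of the 3 comparisons passed (adjusted p = 0.576, 0.97 and 0.65). FLA2 did not pass in any of them either (adjusted p = 0.851, 0.926 and 0.765). XTH15 had 311, 419 and 406 without ants, 679, 166 and 271 for Gracilis and 184 and 434 for gut contents, against 685, 1474 and 978 at 8 am. All 8 ant-treatment values of XTH15 were below all 3 of 8 am, at log2 changes of -1.41 ± 0.68, -1.67 ± 0.68 and -1.81 ± 0.76 that did not pass (adjusted p = 0.132, 0.071 and 0.0947). In all, 28 of the 105 wall genes were called in no comparison of 2 groups, and AGP18, XTH4, AT1G48100 and EXPA13 were called in 6 of the 8. The matching shares over all genes are not given here, so these counts are not set against other genes.

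**Figure D4:**
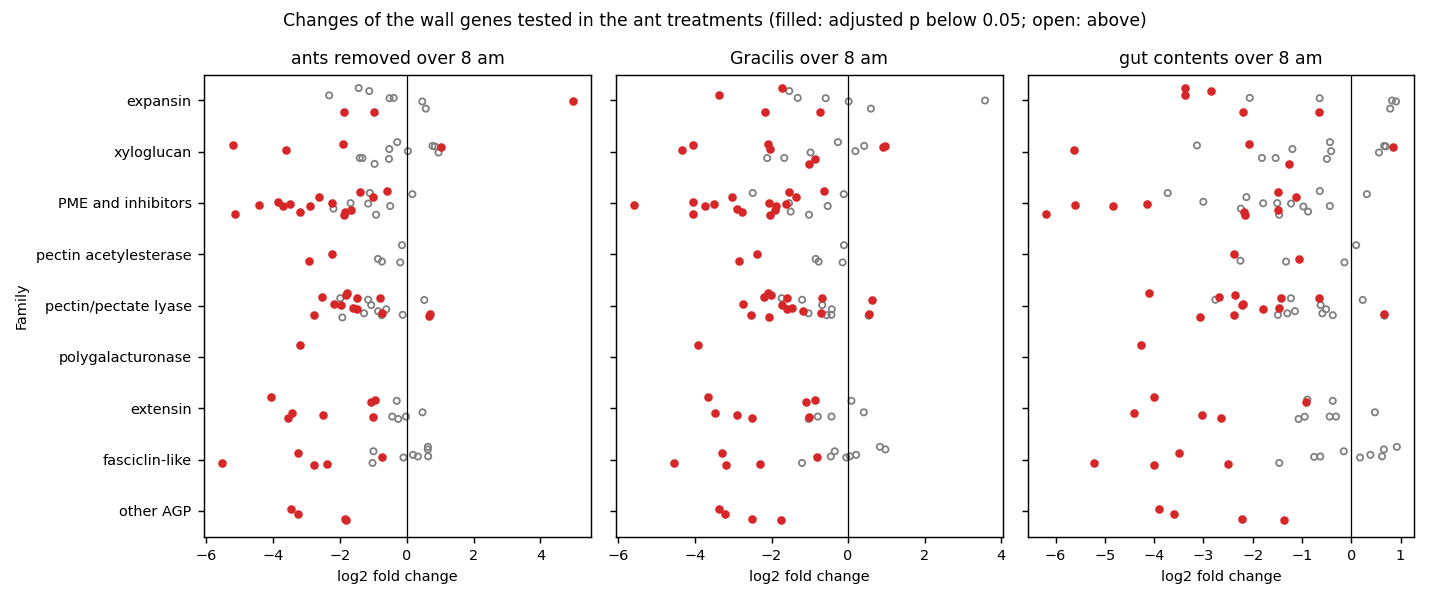
Log2 fold changes of the 105 wall genes by family in 3 ant treatments against the 8 am controls; each point is a gene, filled where the adjusted p was below 0.05, with a random vertical offset for legibility. Filled points lie left of 0 for 50, 58 and 44 genes (ants removed, Gracilis, gut contents) and right of it for 4, 4 and 2, and all 4 other arabinogalactan proteins (AGP) are filled and on the left in each panel.

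Gracilis and ants removed were compared directly, to set a treatment with replacement beside one without ants. Limma called 0 of the 105 wall genes and 0 of all genes tested, with a smallest adjusted p of 1. At an unadjusted p under 0.05 were 2 wall genes: AT5G20740, with 75, 106 and 73 normalised counts for Gracilis, against 17, 75 and 53 without ants (1.01 ± 0.46), and XTH8, with 45, 3 and 10, against 37, 65 and 44 (-1.93 ± 0.90). In both the groups overlap, and groups did not overlap in 8 wall genes (7.62%), beside 5.85% of all genes. With array quality weights limma called 6 wall genes, beside 2.80% of all genes.

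Returned ants have 1 library and no test. It lay below all 8 am libraries in 73 of the 105 wall genes, beside 34.9% of all genes, and above them in 12, beside 37.7%. In 71 it fell within the range of the other 8 ant-treatment libraries, beside 68.2%. XTH4 stood at 67 normalised counts, FLA12 at 376, PG2 at 62, XTH30 at 4616 and AGP18 at 2271. Set against 8 am, all lay on the side of the other ant treatments. XTH4 and AGP18 lay within the range of the 9 am libraries, whose hour this library shares. Of the 105 wall genes 4 had the highest of all 24 values in this library, beside 3.34% of all genes. These were EXT3 (1951, an extensin of the wall network), AT1G77400 (100), FLA7 (36878) and AT4G33440 (349). The lowest value was in it for 3 wall genes, beside 1.71% of all genes: AT5G38610 (59), AT3G54920 (200) and AT1G23460 (15). At 2 pm, also 1 library, 36 of the 105 wall genes were above all other libraries, beside 30.2% of all genes; after scaling by the median of ratios these were 15, beside 5.96%.

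**Figure D5:**
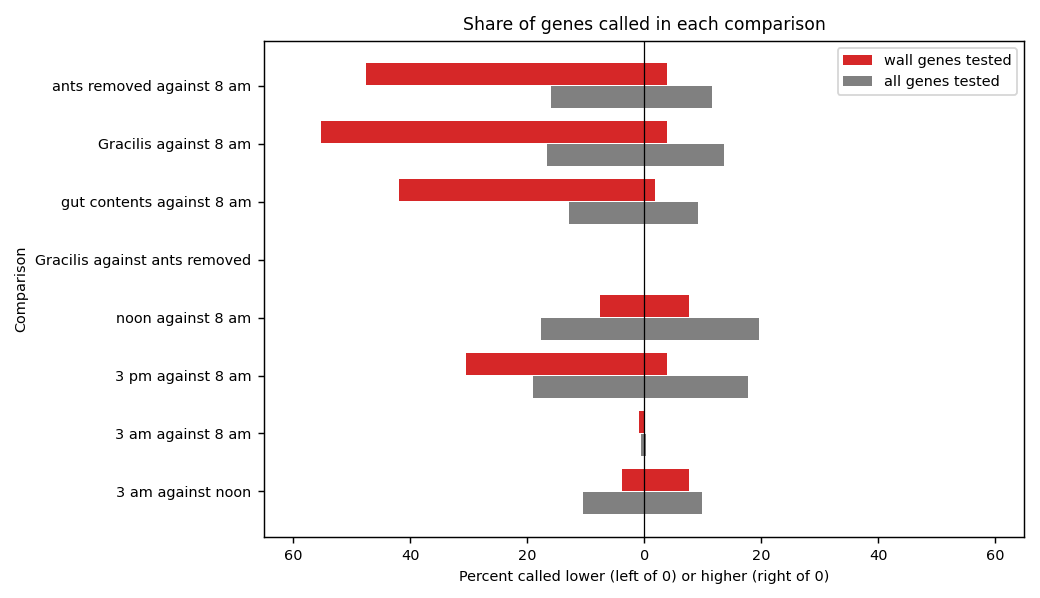
Percent of genes called lower (left of 0) and higher (right of 0) at an adjusted p below 0.05 in each comparison of 2 groups, for the 105 wall genes (red) and all 12264 genes tested (grey). The red bars reach 47.6%, 55.2% and 41.9% lower for ants removed, Gracilis and gut contents and 30.5% for 3 pm, where the grey bars reach 15.9%, 16.7%, 12.9% and 19.0%; at noon and at 3 am the red bars are shorter than the grey ones or nearly alike.

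Genes that make the wall polymers were counted from lists of their own. In the list for cellulose of primary walls all 7 genes tested fell without ants, for Gracilis and for gut contents (CESA1, CESA3, CESA6, KOR1, COB, CSI1 and CTL1). Of all genes tested 15.9%, 16.7% and 12.9% fell in these comparisons, and 11.6%, 13.7% and 9.12% rose. CTL1 (AT1G05850, a chitinase-like protein needed for cellulose deposition in Arabidopsis) had 1370, 1053 and 1048 normalised counts without ants, 1539, 1110 and 1118 for Gracilis and 921 and 1460 for gut contents, against 8728, 20850 and 8747 at 8 am. Every library of these treatments was below every 8 am library. Of 8 pectin synthesis genes 4, 4 and 3 fell in the same 3 comparisons and 0 rose, with GAUT1 (AT3G61130), a galacturonosyltransferase, at -1.11 ± 0.22, -1.15 ± 0.22 and -1.07 ± 0.25. Of 6 xyloglucan synthesis genes, counted without XXT5, 2, 3 and 1 fell. Of 9 genes for wall sensing and growth control 1 rose and 1 fell without ants and for Gracilis, and 0 changed with gut contents. BES1 (AT1G19350), a transcription factor of the brassinosteroid response, was the gene that rose (0.80 ± 0.28 and 0.97 ± 0.28). CESA2 was below the minimum, and CESA5, XXT1, MUR4, UGD2 and BZR1 were not analysed here.

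By time of day the F test called 6 of the 7 cellulose genes, 5 of 8 pectin synthesis genes, 1 of 6 xyloglucan synthesis genes and 3 of 9 sensing genes. It called 39.7% of all genes tested. Of all genes 19.7% rose and 17.7% fell at noon, 17.8% and 19.0% at 3 pm, and 9.89% and 10.4% at 3 am against noon. CESA3, CESA6 and KOR1 rose at noon against 8 am (1.03 ± 0.27, 1.06 ± 0.37 and 0.84 ± 0.31), and 0 cellulose genes fell. At 3 pm 2 of the 7 cellulose genes fell and 0 rose. Pectin synthesis genes gave 2 falls and 0 rises at noon, and likewise at 3 pm. RHM1 (AT1G78570), a rhamnose synthase for pectin, fell at noon (-1.82 ± 0.28) and at 3 pm (-2.18 ± 0.28). Of the sensing and growth control list 2 rose and 1 fell at noon and likewise at 3 pm, while 1 rose and 2 fell at 3 am against noon. BES1 and ARF7 (AT5G20730), an auxin response factor, rose at noon (1.01 ± 0.28 and 1.03 ± 0.24) and at 3 pm (0.79 ± 0.28 and 0.75 ± 0.24) and fell at 3 am against noon (-1.22 ± 0.31 and -0.87 ± 0.27). PIF4 (AT2G43010), a growth-promoting transcription factor under control of light and temperature, fell at noon (-4.45 ± 0.45) and at 3 pm (-2.97 ± 0.45) and rose at 3 am against noon (3.91 ± 0.51).

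Markers of other cell types were followed beside the wall genes in the ant treatments. Of all genes tested 15.9% fell without ants, 16.7% for Gracilis and 12.9% for gut contents. Of 7 genes for xylem and secondary walls 5 fell in each of the 3 comparisons, and the 7 summed to 2666 to 3247 normalised counts without ants, 2960 to 3515 for Gracilis and 2703 to 3011 for gut contents, against 8601 to 19826 at 8 am, and no marker had a group mean of 0. CESA4 (AT5G44030), of secondary walls, had 99, 102 and 87 without ants, 230, 54 and 89 for Gracilis and 77 and 135 for gut contents, against 2092, 3764 and 1430. Phloem markers, 4 in all, summed to 13148 to 14736 over the 3 treatments, against 29991 to 39857, and 2, 2 and 0 of them fell. Of 4 cell division genes 1, 2 and 2 fell, and the 5 of the list summed to 209 to 295, 120 to 185 and 106 to 139, against 337 to 761. None of 4 guard cell and 5 epidermis genes was called, at sums of 1007 to 1681 and 2565 to 5187 over the 3 treatments, against 1463 to 2013 and 5132 to 5870. The part of any of these in the wall-gene results was not tested.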

How the data were processed

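RNA of pooled nectaries was prepared with Illumina's TruSeq RNA version 2 kit, per the labels, a kit that does not mark strand, so overlapping and antisense genes cannot be told apart. The deposited table holds whole numbers for 12650 loci in 24 libraries, treated here as scores: normalised counts that the authors rounded, with the aligner, assembly and scaling not given in the sources used here. A row may join several Acacia transcripts that match the same Arabidopsis locus, near-identical family members may share reads, and the depth behind a value is unknown.

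Values were analysed as log2(value + 1), so fold changes of low genes are understated. A mean of 10 or more across the 24 libraries was required (12264 genes met it, 386 did not), and limma 3.58.1 in R 4.3.3 fitted 1 mean per group over all 24 libraries with a trended variance (14 residual and 3.66 prior degrees of freedom). Tests were 1 F test over 5 times and 8 comparisons of 2 groups, two-sided, with Benjamini-Hochberg adjustment over all genes tested and a threshold of 0.05. Each SE thus rests on the spread of all groups, not on that of the 2 compared. That spread was uneven. The median SD of log2 values over genes was 0.43 at 9 am, 0.44 at 3 pm and 0.10 at noon. In the other replicated groups it was 0.19 to 0.21. The pipeline was tested on simulated data. "Rose" and "fell" are used of genes that passed.

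The text names the 12 wall genes with the smallest F p, in each comparison up to 5 of the largest called rises and 5 of the largest called falls without overlap of the groups, the 2 highest genes of each family and the 5 called most often. Other wall genes were named after their values were seen, or complete a family or count. The wall genes and lists were chosen with earlier results of these data known. Same-numbered Gracilis and ants-removed samples deviated together (correlations 0.51, 0.22 and 0.34 across genes), and blocking on number left that count of calls at 0. Alternatives were another pseudocount, no filter, 2 other scalings, array weights, averaged near-identical pairs, a fit of the compared groups alone, a replicate block, each library left out, and, chosen after seeing the data, a fit without the 9 am and 3 pm libraries.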

Additional observations from a re-analysis of the deposited data

How the results depend on the processing

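Counts are of wall genes called, given here without the share of all genes under the same setting. They show how a count moved with the processing, not how wall genes stood against other genes. In the main fit 15.2% of wall genes were called at noon against 8 am, beside 37.4% of all genes. Pseudocount, filter and scaling kept every count within 1.5 times; quantile normalisation moved the median log2 change of all genes to 0.09 without ants, 0.09 for Gracilis and 0.10 for gut contents, against -0.05, -0.03 and -0.01 before it, and turned no named direction. With array quality weights noon against 8 am gave 43, 3 pm 16, 3 am 4, 3 am against noon 24 and Gracilis against ants removed 6. With near-identical pairs averaged the F test gave 21, noon 9, 3 am 0 and 3 am against noon 3. In fits of the compared groups alone the F test gave 22, noon 39, 3 pm 18 and 3 am against noon 33. Without the 9 am and 3 pm libraries noon gave 32, 3 am 6 and 3 am against noon 21. With a replicate block noon gave 34, 3 am 7 and 3 am against noon 19, and the ant counts were 63, 66 and 51. Deviations of same-numbered samples from their group means correlated at 0.31 and 0.10 for gut contents and 8 am, and at 0.10 and 0.29 for 3 am and 8 am. Outside these and Gracilis against ants removed, correlations ran from -0.27 to 0.20. Leaving out 1 library at a time gave 29 to 60 (F test), 10 to 15 (noon), 21 to 46 (3 pm), 0 to 0 (3 am), 1 to 6 (3 am against noon), 34 to 55 (ants removed), 32 to 57 (Gracilis), 16 to 45 (gut contents) and 0 to 0 (Gracilis against ants removed). Of 784 values of named genes under these alternatives 655 kept their side of the threshold and direction, 129 were no longer called and 0 reversed. The causes were not tested. With 2 or 3 libraries a group and no read depths, small changes and genes near 0 are not resolved.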

Other observations

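AT3G59850, a lyase-like gene chosen after its values were seen, had widely spread values in some groups and close ones in others. It had 5, 390 and 358 normalised counts without ants, 11, 301 and 391 for Gracilis, 63 and 400 for gut contents and 18 for returned ants. The hours of the day gave 18, 297 and 2 at 9 am, 27, 18 and 27 at noon, 437 at 2 pm, 202, 9 and 185 at 3 pm, 1 and 2 at 3 am, and 473, 445 and 247 at 8 am. Sample 1 was the low library of each replicated ant treatment, while the noon, 3 am and 8 am libraries did not overlap between these groups. Over the 5 times the adjusted p of the F test was 0.052, and over noon, 3 am and 8 am, without the 9 am and 3 pm libraries, 0.00621.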
